A study of Mus musculus with 8 samples.

Results

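The 8 genes described here encode the receptor chains for IFNγ (Ifngr1 and Ifngr2), those for the type I interferons (Ifnar1 and Ifnar2), and the Janus kinases Jak1, Jak2, Jak3 and Tyk2. They were chosen by gene name, and each had 1 row in each of 2 tables, which share 20432 genes. MC38 cells, which derive from a colon adenocarcinoma of the mouse, were profiled by RNA-seq in 4 groups, each with 2 independent samples. The groups were control (wild type) cells and DENR KO cells, either untreated or given 20 ng/ml IFNγ for 4 h. DENR was knocked out with lentiviral CRISPR/Cas9, and the sources used here do not say whether the 2 DENR KO samples of a treatment came from separate sgRNAs, clones or cultures.

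IFNγ binds IFNGR1, and IFNGR2 joins the complex. JAK1 sits on IFNGR1 and JAK2 on IFNGR2, and the activated kinases phosphorylate STAT proteins that enter the nucleus. Type I interferons use IFNAR1, which carries TYK2, and IFNAR2, which carries JAK1, while JAK3 serves receptors with the common gamma chain and is best known from lymphoid cells. DENR is a non-canonical translation factor that acts with MCTS1 to let ribosomes start again after they have translated a very short upstream open reading frame (uORF). The comparisons ask whether the mRNAs upstream of the STATs differed when DENR was lost, and how they responded to IFNγ.

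The genes are at chr10:19591949-19610229 (Ifngr1), chr16:91547072-91565169 (Ifngr2), chr16:91485238-91507441 (Ifnar1), chr16:91372783-91405589 (Ifnar2), chr4:101152367-101265282 (Jak1), chr19:29251828-29313080 (Jak2), chr8:71676296-71690575 (Jak3) and chr9:21104068-21131243 (Tyk2), in the GRCm38 coordinates of the deposited tables. Jak1 and Tyk2 are on the reverse strand and the others on the forward strand. How strand was handled in counting is not given in the sources used here, so reads cannot be divided where genes overlap. Ifnar2 overlaps Gm21970, which has no row in the tables, Jak1 overlaps Raver2, Gm12785 and Gm24468, Jak3 overlaps Insl3, and Tyk2 overlaps the antisense transcript 1700084C06Rik. Raver2 held at most 4.10 normalized counts in any sample and Insl3 at most 37.8, far below the genes they overlap.

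Because DENR acts on short uORFs, the 5ʹ UTRs of the protein-coding transcripts were read from GENCODE (vM21, GRCm38) for every ATG that meets a stop codon inside the 5ʹ UTR. In a start-stop uORF the stop codon comes straight after the ATG, and 3 of the 8 genes had one. Jak2 had it in all 4 of its transcripts, Ifnar1 in 2 of 3 and Ifnar2 in 2 of 5. The windows of 30 bases are printed 5ʹ to 3ʹ on the strand of the gene, with the uORF in capitals, because they show the bases around each site.
Jak2, exon 1, chr19:29251946-29251951: cgccgctgcgggATGTGAgtgcgggccaag
Jak2, second exon of a longer transcript, chr19:29252464-29252469: gacgggaacaagATGTGAactgttttccct
Ifnar1, exon 1, chr16:91485314-91485319: agaaggaggagaATGTGAgccgccgcccgg
Ifnar2, chr16:91387998-91388003: cacgaagtcatcATGTGAcgtgacagataa
Ifnar2, chr16:91387810-91387815: agttttagaatgATGTGAttgtgggatatc
The stop codon was TGA at all 5 sites. The Ifnar1 uORF ended 24 bases before the start codon, and the Ifnar2 sites ended 25 and 213 bases before it in the order printed. The first Jak2 site ended 192 or 275 bases before the start codon, depending on the transcript, and the second ended 75 bases before it. The second Jak2 site is also in exon 1 of a transcript with a 5ʹ UTR of 104 bases, where it is the only start-stop uORF.

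Jak2 also carried a uORF of 9 bases that ended 12 bases before the start codon in all 4 transcripts, shown because it is the last one a ribosome would meet before the JAK2 coding sequence.
Jak2, chr19:29262187-29262195: tcgccggccaATGTTCTGAaaaaagctcta
Jak2, the same position after another exon: gcgaaggccaATGTTCTGAaaaaagctcta
Each of these windows is found in 2 of the 4 transcripts, which differ in the exon before this one.
Ifngr2 and Jak1 had longer uORFs of 24 and 18 bases, Jak3 and Tyk2 had uORFs of at least 21 bases, and Ifngr1 had none in its 5ʹ UTR of 137 bases. Across 11622 tested genes with an annotated 5ʹ UTR, 59.1% had a uORF in some transcript and 12.1% a start-stop uORF. Longer 5ʹ UTRs hold more of them. Among genes whose longest 5ʹ UTR was within 10% of the length in Ifnar1 (106 bases), 3.08% had a start-stop uORF, against 17.3% at the length in Jak2 (399 bases) and 19.9% at that in Ifnar2 (454 bases). These matches describe sequence and are not measurements of translation.

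All 8 genes matched a RefSeq promoter (GRCm38.p6, 250 bases before to 50 after the start). These were searched on both strands for the gamma-activated site bound by STAT dimers, TTCNNNGAA, and for the interferon-stimulated response element, written as GAAA, any 2 bases and GAAA. The first was found in Ifnar2 and Ifnar1, with its first base at -214 and -5 from the start, and the second in none of the 8. Of 32544 mouse promoters, 8.33% held the first motif and 3.45% the second. Both matches are printed with the motif in capitals, since they belong to neighbouring genes that differ in their response below.
Ifnar2 promoter, chr16:91372569-91372577: ccaaggccTTCCTGGAAgaagagag
Ifnar1 promoter, chr16:91485210-91485218: cgggggcgTTCACGGAAggggcggg

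Reads on genes ran from 17369020 to 18403790 per sample, and the members held between 361 (Ifnar2) and 5066 (Jak1) reads each. As a check of the line, 3 of 8 colon epithelial markers had no row in either table, among them Epcam, and the others reached at most 0.250 RPKM, the usual measure of reads scaled by gene length and by all reads on genes of a sample, so the defining epithelial markers were at or near 0. Markers of blood cells summed to at most 0.207 and of endothelium to at most 0.355 on the same scale. The 4 fibroblast markers summed to between 113 and 119 in the control samples and between 101 and 102 in the DENR KO samples. The lower sum goes with Dcn, which encodes the matrix protein decorin and differed by -0.47 with IFNγ and -0.31 untreated on the log2 scale (limma adjusted p = 4.2e-05 and 0.013). The untreated call of Dcn was lost without control replicate 1 (adjusted p = 0.059), control replicate 2 (0.31) or DENR KO replicate 2 (0.41). Col1a1, Col1a2 and Pdgfra had log2 differences between -0.06 and 0.06 and did not pass. The part of this in the results below was not tested. In bulk RNA, fewer cells with a transcript and less transcript per cell cannot be told apart.

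Per gene length, Jak1 was the most abundant of the 8 in every group and Tyk2 and Jak3 the least. In untreated control cells Jak1 stood at 37.5 ± 0.0817 RPKM (mean ± SD, n = 2). Ifngr1 followed at 23.7 ± 2.46, Ifngr2 at 16.9 ± 0.374, Ifnar1 at 15.1 ± 0.224 and Jak2 at 12.7 ± 1.48. Ifnar2 stood at 6.49 ± 0.437, Tyk2 at 5.91 ± 0.0811 and Jak3 at 5.28 ± 0.386. Both chains of the IFNγ receptor were thus above both chains of the type I receptor, and no neighbours in this order overlapped.

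With IFNγ Jak2 moved in control cells from the fifth place to the third, at 23.6 ± 0.695, above Ifngr2 at 21.4 ± 1.11. Jak3 at 6.60 ± 0.902 also moved above Tyk2 at 5.41 ± 0.478 in control cells, without overlap. In DENR KO cells with IFNγ, Ifngr2 at 20.0 ± 0.621 and Jak2 at 19.4 ± 0.275 overlapped, though not as TPM, which sums to the same total in each sample. Jak3 and Tyk2 overlapped in both groups of DENR KO cells.

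**Figure D1:**
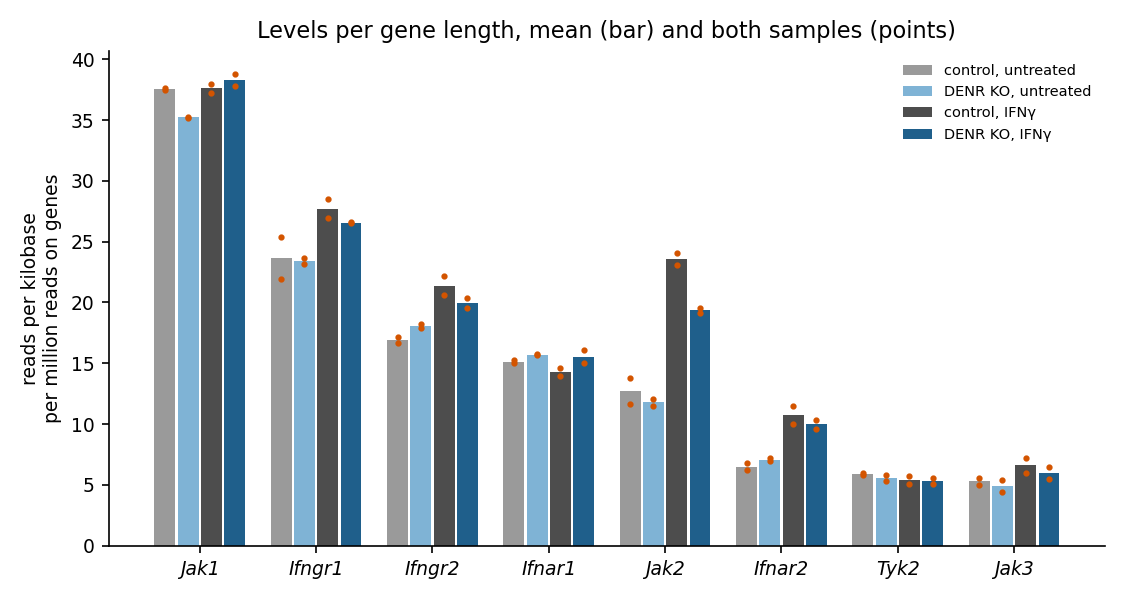
Levels of the 8 genes in RPKM (y axis, reads on genes scaled by depth and gene length), with bars for the mean of each of the 4 groups and points for both samples. Jak1 stood between 35.2 and 38.8 in all 8 samples, and Jak2 shows the widest step between untreated and IFNγ-treated cells.

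Denr itself, the targeted gene, was lower in the DENR KO samples of both treatments. Its normalized counts (reads divided by 1 size factor for the sample) were 1438 and 1401 in control and 946 and 957 in DENR KO cells with IFNγ. Untreated, they were 1448 and 1297 in control and 943 and 916 in DENR KO cells. The groups did not overlap in either table, and Denr mRNA was at 67.1% and 67.8% of control by limma with Benjamini-Hochberg adjustment (adjusted p = 8.2e-06 with IFNγ and 1.1e-04 untreated). The remaining mRNA is the level of the transcript and does not show how much protein was left.

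With IFNγ, 1 of the 8 genes differed between DENR KO and control cells: Jak2, the kinase on IFNGR2, was lower. By the same limma test with an adjusted p under 0.05, 2.25% of the 13928 genes tested were lower and 1.80% were higher. For Jak2 the normalized counts were 2068 and 2163 in control cells, against 1706 and 1738 in DENR KO cells. Both DENR KO samples lay below both control samples. On the log2(normalized count + 1) scale it fell by 0.30 (SE 0.0644, 95% interval -0.43 to -0.16, limma adjusted p = 0.0064), to 81.4% of control.

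The Jak2 call rested in part on 1 library. Without control replicate 2 with IFNγ the difference was -0.26 with an adjusted p of 0.063 by limma. It was also lost where a log2 fold change beyond 0.5 was required.

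The other kinases did not pass the test. Jak1 had 4788 and 4904 normalized counts in control and 4831 and 4948 in DENR KO cells, with a log2 difference of 0.01 (95% interval -0.10 to 0.13). The samples of both genotypes interleave. Jak3 had 690 and 570 in control and 611 and 520 in DENR KO cells, a log2 difference of -0.15 (95% interval -0.37 to 0.06). Tyk2 had 702 and 621 in control and 680 and 612 in DENR KO cells, a log2 difference of -0.03 (95% interval -0.22 to 0.16). For both, the spread between the samples of a group was wider than the step between the groups.

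Among the receptor chains, Ifngr1, which binds IFNγ, had 1445 and 1369 normalized counts in control and 1337 and 1337 in DENR KO cells (log2 difference -0.07, 95% interval -0.22 to 0.07). Ifngr2, the signalling partner, had 1213 and 1310 in control and 1144 and 1194 in DENR KO cells (log2 difference -0.11, 95% interval -0.26 to 0.04). Both had DENR KO samples below the control samples, and neither passed the limma test (adjusted p = 0.74 and 0.59). Ifnar1 went the other way, with 1525 and 1467 in control and 1563 and 1668 in DENR KO cells (log2 difference 0.11, 95% interval -0.03 to 0.25, limma adjusted p = 0.54). Ifnar2 had 679 and 594 in control and 611 and 563 in DENR KO cells, which overlap (log2 difference -0.12, 95% interval -0.31 to 0.08). In all, the groups did not overlap for 4 of the 8 genes, where 42.0% of all genes tested had groups that did not overlap.

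**Figure D2:**
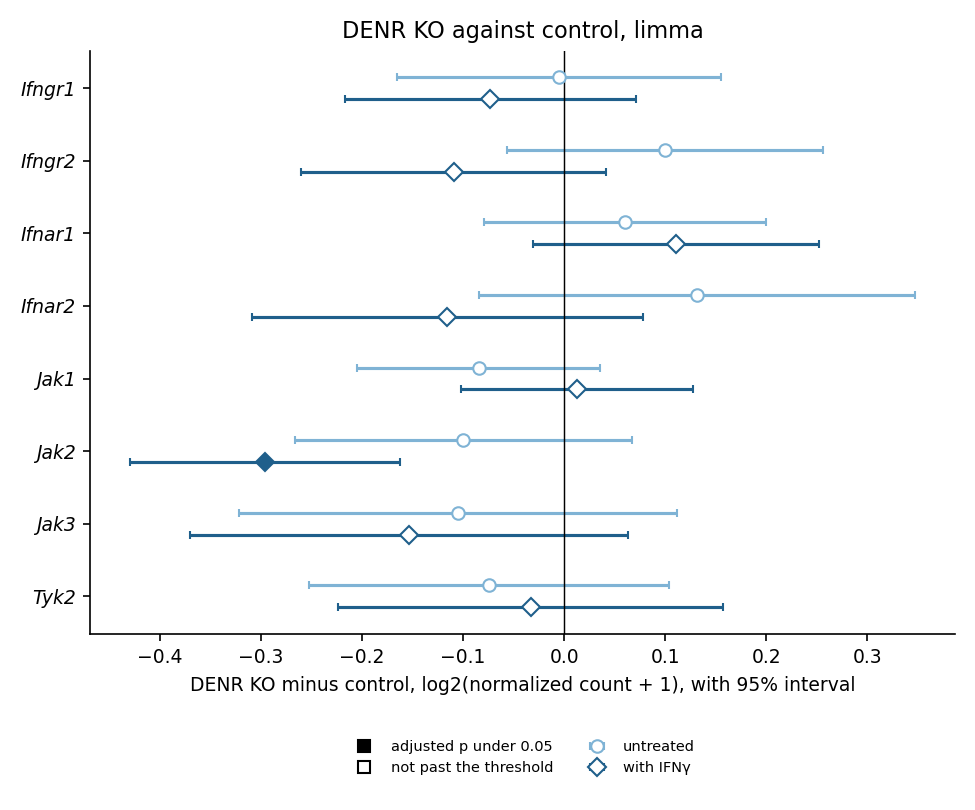
Difference between DENR KO and control for each of the 8 genes, in log2(normalized count + 1) by limma (x axis), with 95% intervals. Circles are untreated and diamonds IFNγ-treated cells, each with 2 samples per genotype, and the filled diamond of Jak2 at -0.30 is the 1 value past an adjusted p of 0.05.

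Untreated, none of the 8 genes passed the limma test between DENR KO and control cells. The count was also 0 at an unadjusted p under 0.05, and 0 of the 8 were called by edgeR and by DESeq2. Of the 13998 genes tested untreated, 0.579% were called. Jak2 had 1060 and 1240 normalized counts in control and 1093 and 1047 in DENR KO cells. The 2 control samples of Jak2 lay apart by more than the groups did, and the log2 difference of -0.10 (95% interval -0.27 to 0.07) turned to 0.01 without control replicate 2.

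Of the other kinases, Jak1 had 4888 and 4864 normalized counts in untreated control and 4594 and 4602 in DENR KO cells, with a log2 difference of -0.08 (95% interval -0.20 to 0.04). The samples of each group lay close together and the groups apart, yet the difference did not pass a test that shares its spread with other genes. Jak3 had 536 and 480 in control and 429 and 519 in DENR KO cells, and Tyk2 had 724 and 733 in control and 663 and 722 in DENR KO cells. Their log2 differences were -0.10 and -0.07.

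No receptor chain passed the test in untreated cells either. Ifngr1 had 1127 and 1295 normalized counts in control and 1189 and 1218 in DENR KO cells, with the latter inside the control range. Ifngr2 had 996 and 1020 in control and 1088 and 1072 in DENR KO cells (log2 difference 0.10, 95% interval -0.06 to 0.26). Ifnar1 had 1590 and 1610 in control and 1662 and 1675 in DENR KO cells (log2 difference 0.06, 95% interval -0.08 to 0.20). All 3 chains on chromosome 16 had both DENR KO samples above both control samples, Ifnar2 with 417 and 433 against 408 and 368 (log2 difference 0.13, 95% interval -0.08 to 0.35). The groups did not overlap for 5 of the 8 genes, against 39.9% of all genes tested.

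Whether the DENR KO difference itself depended on IFNγ was tested as an interaction in limma over all 8 samples. None of the 8 genes passed after adjustment, and Ifngr2 alone had an unadjusted p under 0.05, with a limma adjusted p of 0.87. Neither edgeR nor DESeq2 called any of the 8. Of the 13998 genes tested, 0.450% were called. Ifngr2 was higher in DENR KO than in control cells untreated and lower with IFNγ, with no overlap in either table, and the difference of differences was -0.21 (95% interval -0.42 to -0.00109). That of Jak2 was -0.20 (95% interval -0.41 to 0.02, limma adjusted p = 0.92), and that of Ifnar2 was -0.25 (95% interval -0.53 to 0.04). A DENR KO difference in Jak2 that is particular to IFNγ was therefore not shown.

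IFNγ raised several of the 8 mRNAs in control cells. The 2 tables were normalized separately, so the response was tested with edgeR's quasi-likelihood test on the recovered reads of all 8 samples, with TMM scaling and Benjamini-Hochberg adjustment. By this test 5 of the 8 genes rose and none fell (4 by DESeq2 and by limma, and 3 by edgeR without IFNγ-treated control replicate 1), where 8.92% of the 14691 genes tested rose and 5.94% fell. With limma on the deposited values, each table on its own scale, 1002 genes were higher and 1760 lower, against 1310 and 872 by edgeR, so the split of all genes depended on the scale.

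Jak2 rose most of the 8. It had 57.6 and 67.8 RPM (reads scaled by depth with the TMM factor) in untreated control cells and 119 and 124 with IFNγ. Both treated samples lay far above both untreated ones, at 1.94 times the untreated level (log2 change 0.96, SE 0.0725, edgeR adjusted p = 7.3e-11). Ifnar2, the type I receptor chain that carries JAK1, rose from 22.2 and 20.1 to 39.1 and 34.2 RPM (log2 change 0.79, SE 0.0968, edgeR adjusted p = 5.5e-07). Ifngr2 rose from 54.1 and 55.7 to 69.8 and 75.4 (log2 change 0.40, SE 0.0709, edgeR adjusted p = 1.3e-04). These 3 remained called by DESeq2, by limma, under the replicate block and without any 1 of the 8 samples.

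Ifngr1 and Jak3 rose less, and their calls rested on single libraries. Ifngr1 went from 61.2 and 70.8 to 83.2 and 78.8 RPM (log2 change 0.30, SE 0.0731, edgeR adjusted p = 0.0051), with adjusted p = 0.072 by edgeR without IFNγ-treated control replicate 1 and 0.14 without untreated control replicate 1. Jak3, the lymphoid kinase, went from 29.1 and 26.2 to 39.7 and 32.8 (log2 change 0.39, SE 0.113, edgeR adjusted p = 0.022). Its adjusted p was 0.060 by DESeq2 and 0.072 by limma, and by edgeR 0.28 without IFNγ-treated control replicate 1 and 0.16 without untreated control replicate 2.

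The other 3 genes did not pass. Ifnar1 had 86.4 and 88.0 RPM untreated and 87.8 and 84.4 with IFNγ, which overlap (log2 change -0.02, SE 0.0646). Tyk2 had 39.4 and 40.0 untreated and 40.4 and 35.8 with IFNγ (log2 change -0.06, SE 0.0876). Jak1, which serves both receptors, had 266 and 266 untreated and 276 and 282 with IFNγ (log2 change 0.07, SE 0.0535), and its direction turned to -0.01 by limma on the deposited values. In these control cells the chains and kinases that rose thus included both IFNγ receptor chains, 1 type I receptor chain and 2 kinases.

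**Figure D3:**
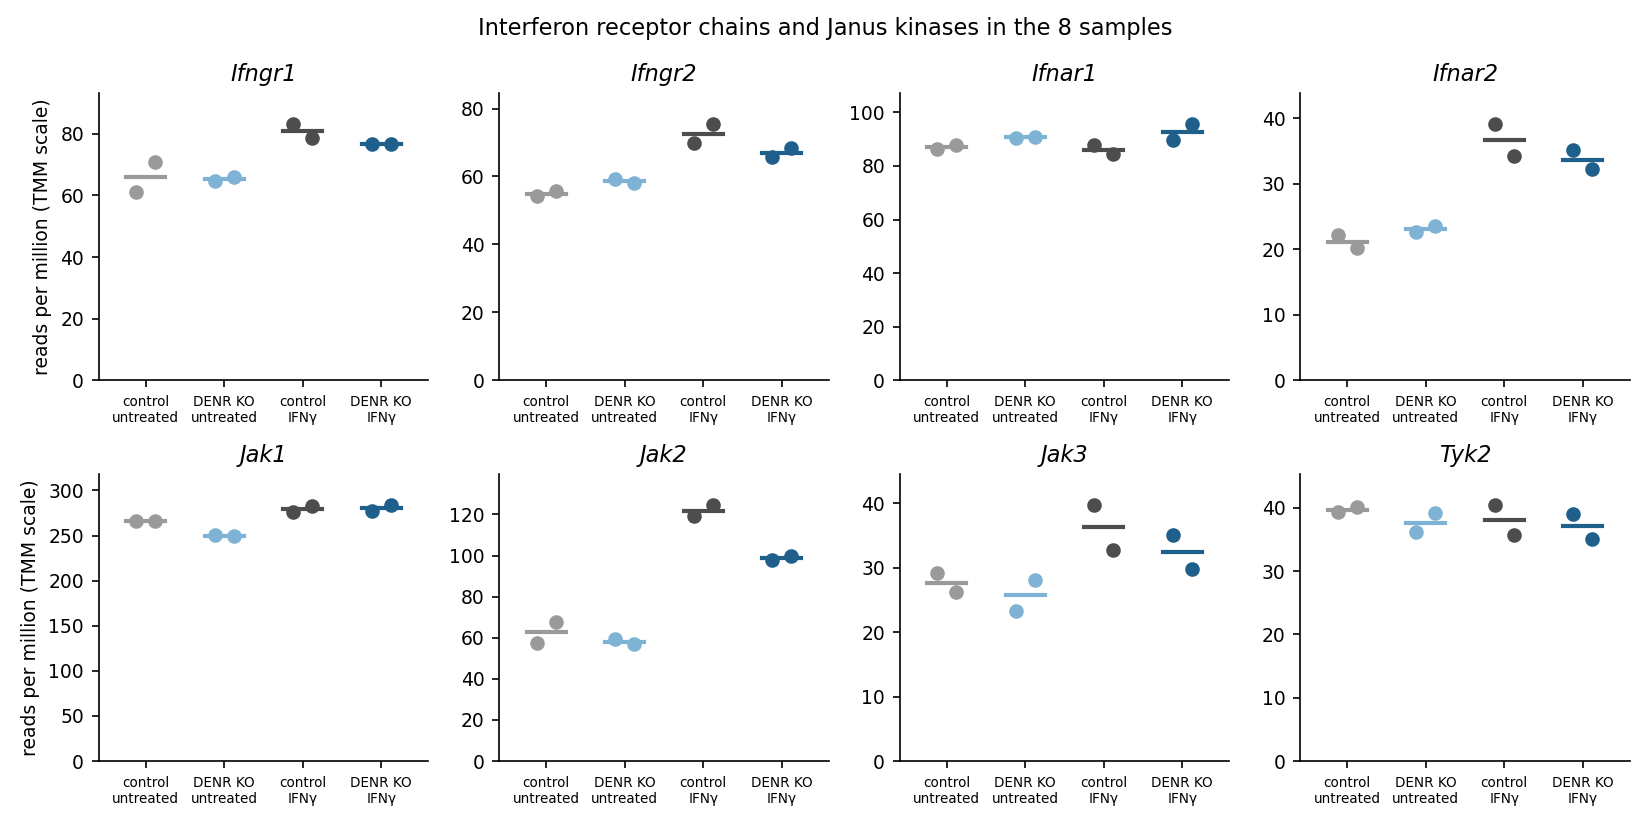
RPM on the TMM scale (y axis, from 0) for each of the 8 genes in each of the 8 samples, by group, with a line at the mean of the 2 samples. The IFNγ-treated samples of Jak2, Ifnar2, Ifngr1, Ifngr2, Jak1 and Jak3 lie above all untreated samples of either genotype, for Jak3 by little. Those of Tyk2 and Ifnar1 overlap them.

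In DENR KO cells 4 of the 8 genes rose with IFNγ and none fell, against 6.88% and 2.80% of all genes tested. On the deposited values limma called 750 genes higher and 955 lower, against 1011 and 411 by edgeR. Jak2 rose from 59.5 and 56.9 to 98.0 and 99.6 RPM, which is 1.70 times the untreated level (log2 change 0.76, SE 0.0731, edgeR adjusted p = 1.1e-08). Ifnar2 rose from 22.7 and 23.5 to 35.1 and 32.2 (log2 change 0.54, SE 0.0959, edgeR adjusted p = 2.0e-04). Both calls held in DESeq2, in limma and without any 1 of the 8 samples.

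Ifngr1 and Jak1 passed in DENR KO cells by a small margin. Ifngr1 went from 64.7 and 66.1 to 76.8 and 76.6 RPM (log2 change 0.23, edgeR adjusted p = 0.046), and its adjusted p was 0.14 by DESeq2 and 0.20 by limma. By edgeR the call was lost without any 1 of the 4 DENR KO samples (adjusted p from 0.17 to 0.30) and without IFNγ-treated control replicate 1 (0.050). Jak1 went from 250 and 250 to 277 and 284 (log2 change 0.17, edgeR adjusted p = 0.049). Its adjusted p was 0.045 by DESeq2 and 0.017 by edgeR under the replicate block. The call was lost by limma (adjusted p = 0.31) and by edgeR with no filter on low counts (0.064). It was also lost by edgeR without any 1 of the 8 samples, where the log2 change of Jak1 ran from 0.150 to 0.180. Ifngr2 had 59.2 and 58.2 untreated and 65.7 and 68.4 with IFNγ (log2 change 0.19, edgeR adjusted p = 0.098). Jak3 had 23.3 and 28.2 untreated and 35.1 and 29.8 with IFNγ (log2 change 0.33, edgeR adjusted p = 0.077), and passed when either IFNγ-treated control sample (adjusted p = 0.044 in both cases), IFNγ-treated DENR KO replicate 2 (0.033) or untreated DENR KO replicate 2 (0.042) was left out.

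Tyk2 had 36.1 and 39.2 RPM untreated and 39.0 and 35.1 with IFNγ in DENR KO cells, and Ifnar1 had 90.4 and 91.0 untreated and 89.7 and 95.6 with IFNγ. Neither passed, and the change of Ifnar1 turned from 0.03 to -0.05 by limma on the deposited values. That Ifngr2 and Jak3 passed in control cells and not in DENR KO cells does not show a difference between genotypes. The interaction test given above is the test of that difference, and none of the 8 genes passed it after adjustment.

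**Figure D4:**
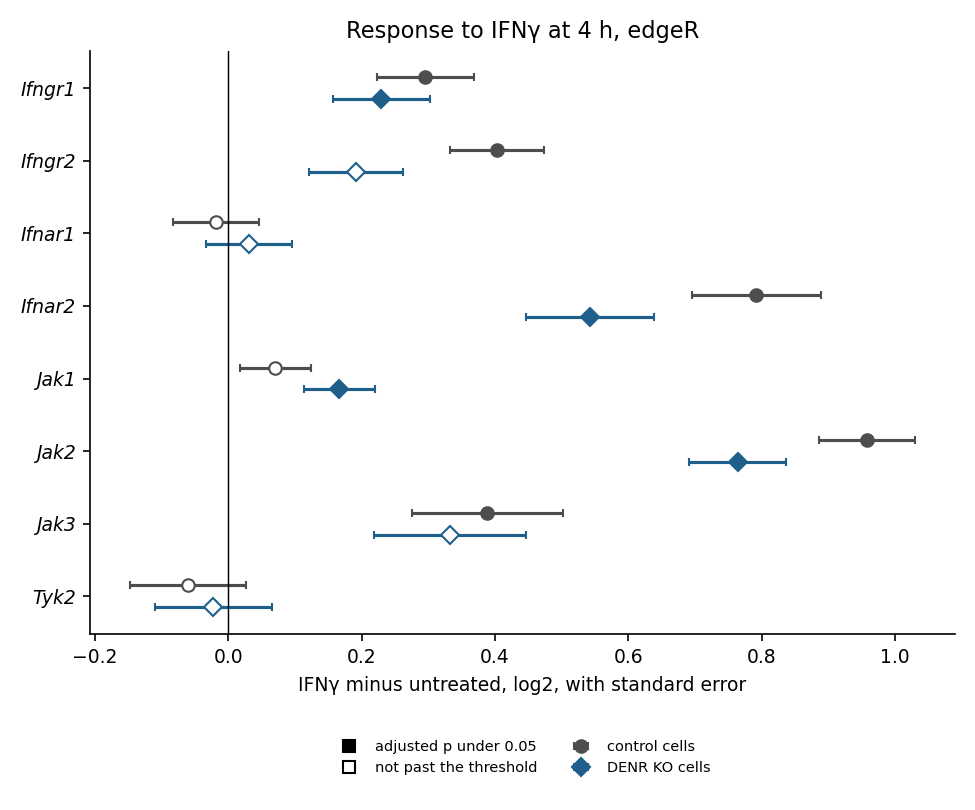
Log2 change from untreated to IFNγ-treated cells for each of the 8 genes by edgeR (x axis), with the standard error, in control cells (circles) and DENR KO cells (diamonds), 2 samples per group. Jak2 and Ifnar2 stand apart at 0.96 and 0.79 in control and 0.76 and 0.54 in DENR KO cells, and open symbols did not pass an adjusted p of 0.05.

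Ifnar2, Ifnar1 and Ifngr2 lie within 192.8 kb of chromosome 16, all on the forward strand, together with Il10rb, which encodes a chain of the IL-10, IL-22 and type III interferon receptors. In control cells the log2 response to IFNγ was 0.79 for Ifnar2, 0.27 for Il10rb, -0.02 for Ifnar1 and 0.40 for Ifngr2, in the order of their positions. Il10rb starts 33.4 kb from the start of Ifnar2 and had 13.2 and 15.4 RPM untreated and 16.8 and 17.7 with IFNγ, without overlap, and did not pass the edgeR test (adjusted p = 0.16). Ifnar1 lay between Ifnar2 and Ifngr2, which passed the test, with Il10rb between it and Ifnar2, and did not itself pass. Jak2 also has a neighbour induced by IFNγ, Cd274, which encodes PD-L1. In control cells Cd274 went from 2.79 and 2.29 to 122 and 125 RPM (log2 change 5.60, SE 0.111, edgeR adjusted p = 1.4e-23), and it was lower in DENR KO than in control cells with IFNγ by a log2 difference of -0.83 (limma adjusted p = 8.4e-09).

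**Figure D5:**
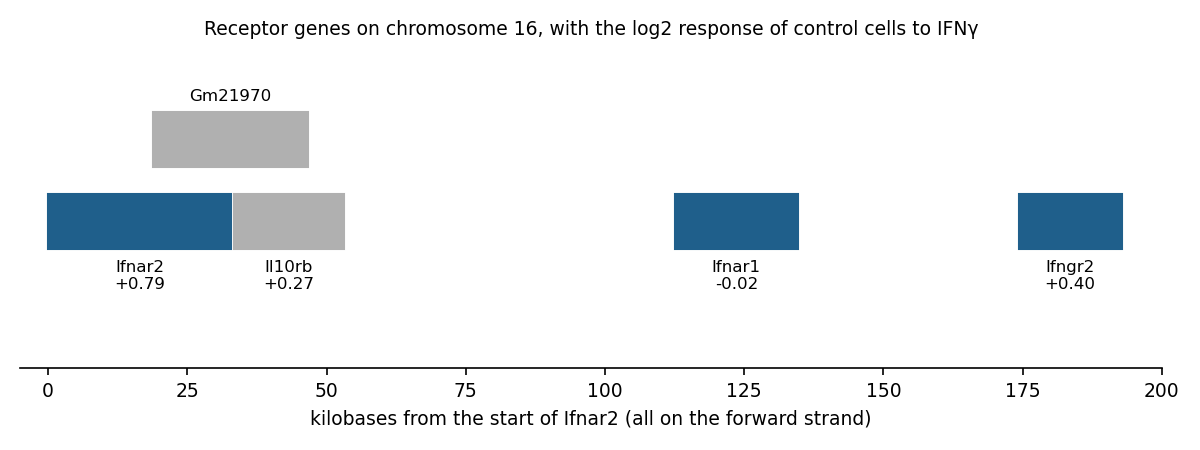
Protein-coding genes of the receptor cluster on mouse chromosome 16, drawn to scale in kilobases from the start of Ifnar2 (x axis), with members in blue and other genes in grey. The number under a gene is the log2 response of control cells to IFNγ, which was 0.79 for Ifnar2 and -0.02 for Ifnar1.

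The other genes of the pathway were taken from lists. Among the STAT genes, the transcription factors that the kinases phosphorylate, Stat3 and Stat2 were lower in DENR KO than in control cells with IFNγ. Stat3 differed by -0.54 on the log2 scale (limma adjusted p = 8.4e-07) and Stat2 by -0.52 (1.8e-05), against a median of -0.000356 over all genes tested. Untreated, neither was called by limma (log2 differences of 0.06 and -0.08).

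Both changed more with IFNγ than the receptors and kinases above them. In control cells Stat2 rose by 2.69 and Stat3 by 2.67 on the log2 scale (edgeR adjusted p = 1.9e-19 and 6.5e-21), where the 8 receptor and kinase genes had a median change of 0.34 and all genes tested one of -0.00512. Stat5a rose by 0.36 (edgeR adjusted p = 0.032), and its adjusted p was 0.055 and 0.24 without IFNγ-treated control replicate 1 and 2, 0.18 without untreated control replicate 2 and 0.15 by DESeq2. In DENR KO cells Stat2 rose by 2.24 and Stat3 by 2.07.

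Of 19 inhibitors of the pathway, among them the SOCS proteins, phosphatases and PIAS proteins, 18 were tested. With IFNγ, 3 were lower and 1 higher in DENR KO cells. Socs1, which blocks JAK kinase activity directly, differed by -0.75 and Socs3 by -0.62 on the log2 scale (limma adjusted p = 1.9e-08 and 5.3e-06). Cish differed by -0.73 (limma adjusted p = 0.042), and its adjusted p was 0.12 without control replicate 1, 0.50 without DENR KO replicate 1, 0.44 by DESeq2, 0.052 by edgeR and 0.078 in 1 fit of all 8 samples. Socs5 differed by 0.27 (limma adjusted p = 0.012), and its adjusted p was 0.14 without control replicate 1 and 0.16 without DENR KO replicate 2. In control cells 6 of the 18 rose and 2 fell with IFNγ. Among those that rose were Socs1 at 2.72 and Socs3 at 1.54. Those that fell were Socs2 at -0.61 and Pias3 at -0.33 (edgeR adjusted p = 0.040 and 0.010). The Pias3 call was lost without IFNγ-treated control replicate 2 (adjusted p = 0.11) or untreated control replicate 1 (0.13), and that of Socs2 without either IFNγ-treated control sample (0.11 and 0.18), without untreated control replicate 2 (0.28) and by DESeq2 (0.21). In DENR KO cells 4 rose, with Socs1 at 1.96 and Socs3 at 1.08, and Pias3 fell by 0.32 on the log2 scale (edgeR adjusted p = 0.018), with an adjusted p of 0.20 and 0.32 without replicate 2 of IFNγ-treated or of untreated DENR KO cells.

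Untreated, 1 of the 18 inhibitors was called between DENR KO and control cells, Socs2, at a log2 difference of -0.95 (limma adjusted p = 0.013). Its adjusted p was 0.061 without control replicate 1, 0.37 without control replicate 2 and 0.10 without DENR KO replicate 1, and 0.25 by DESeq2.

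Of 35 other receptor chains that signal through Janus kinases, 16 had enough reads to test with IFNγ, and most of the others had no row or a few reads. Osmr, the oncostatin M receptor, Il13ra1 and Il15ra were lower in DENR KO cells, at log2 differences of -0.61, -0.65 and -0.41 (limma adjusted p = 4.0e-05, 7.1e-04 and 0.0014), and none was higher. In control cells 7 of the 16 rose with IFNγ. Ghr, the growth hormone receptor, fell by 0.21 on the log2 scale (edgeR adjusted p = 0.030), with an adjusted p of 0.23 without IFNγ-treated control replicate 1 and 0.12 without untreated control replicate 2. Il15ra rose by 3.06, Osmr by 2.68 and Il13ra1 by 2.36, more than any of the interferon receptor chains, while Il6st, the shared gp130 chain, rose by 0.44 and Il4ra by 0.57. In DENR KO cells 6 rose and none fell. Of 6 interferon ligand genes, 5 had no row in either table and Ifne held at most 2 reads in any sample.

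The genes whose levels over the 8 samples were most like those of each member were found by Pearson's r of log2(RPM + 1) among 10325 other genes whose normalized counts averaged 100 or more. The 8 points share 4 groups, so these values mix the pattern over groups with differences between the 2 samples of a group. Each r printed is among the highest of 10325 over 8 points, a choice that by itself raises it, and none was tested. Jak2 was followed most closely by Cenpj (r = 0.9985), Eif2ak2, which encodes the interferon-induced kinase PKR (r = 0.9981), and Serpinb9, a granzyme B inhibitor (r = 0.9969). Ifnar2 was most like Dbnl (r = 0.9961), Sdc4 (r = 0.9953) and Egln3 (r = 0.9948). Ifngr2 was most like Btg1 (r = 0.9926), Tmbim6 (r = 0.9912) and Tmem185b (r = 0.9911). Ifngr1 was most like Ppp4r2 (r = 0.9837), Nt5dc3 (r = 0.9788) and Gm8773 (r = 0.977).

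Jak3 was most like Dhcr7, a cholesterol synthesis enzyme (r = 0.9914), Ikbke (r = 0.9738) and Efhd2 (r = 0.9706). Jak1 was most like Pggt1b (r = 0.9891), Gm43980 (r = 0.9749) and Polr1b (r = 0.9725). Ifnar1 was most like Fam57a (r = 0.9483), Hhat (r = 0.9238) and Matn2 (r = 0.9215), and Tyk2 most like Gm6395 (r = 0.9369), Snx12 (r = 0.9332) and Fyb (r = 0.9301). Ifnar1 and Tyk2 were not called in any comparison, so their nearest genes do not mark a pattern over groups. None of the 8 members was among the 3 nearest genes of another. Between members, r ran from -0.449 (Ifngr2 and Tyk2) to 0.951 (Ifngr1 and Jak2).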

How the data were processed

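Trizol RNA was enriched for mRNA on poly-T beads and sequenced from both ends. The submitters' processing notes name HISAT2 2.0.5, StringTie 1.3.3b, featureCounts 1.5.0-p3 and DESeq2 1.20.0, and list mm9 as the build, while gene positions in the tables are those of GRCm38. The authors deposited 1 table per treatment with a normalized signal per gene and sample, the read count divided by a size factor, beside columns of their own fold changes and p-values that were not used. All values (100% within a tolerance of 0.001) were whole reads after multiplication by the size factor.

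DENR KO and control were compared within a table with limma 3.58.1 (R 4.3.3, trend, robust) on log2(value + 1) of genes with a mean of at least 10, called at a Benjamini-Hochberg adjusted p under 0.05. The fold change on this scale understates changes of low genes. The interaction used all 8 samples. The response to IFNγ was tested with edgeR 4.0.16 (TMM, quasi-likelihood) on recovered reads, and its SE was taken from the effect and its F statistic. DESeq2 1.42.0 was an alternative. Limma, edgeR and DESeq2 between genotypes with IFNγ, limma for the interaction and edgeR for the response of control cells were run on simulated data. The other alternatives were not, and the outcomes are not reported here.

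All 8 members are named in every comparison. From each list up to 5 called genes with the smallest adjusted p were eligible, with Denr, Il10rb, Cd274 and, for each member, the 3 genes most like it. Socs2, Cish, Socs5, Stat5a, Pias3 and Ghr were named after their values were seen, as parts of small counts. The members and lists were chosen with earlier results of these data known. Reads per kilobase used the deposited gene lengths. With 2 samples per group, p-values rest on the spread between these samples, which the tests share in part with other genes. Some results are not reported here.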

Additional observations from a re-analysis of the deposited data

Results flagged for a closer look

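No member was marked, and groups of 2 samples are too small for a check of single samples. For 3 other genes of the pathway the DENR KO difference depended on IFNγ by the limma interaction over all 8 samples. Stat3 had 5533 and 5179 normalized counts in control and 3714 and 3648 in DENR KO cells with IFNγ, and 916 and 860 against 862 and 992 untreated, a difference of differences of -0.60 on the log2 scale (limma adjusted p = 0.0019). Socs1 had 3314 and 3616 in control and 2087 and 2032 in DENR KO cells with IFNγ, and 597 and 517 against 539 and 577 untreated, a difference of -0.75 (limma adjusted p = 4.4e-04). Osmr had 895 and 941 in control and 578 and 626 in DENR KO cells with IFNγ, and 149 and 153 against 151 and 199 untreated, a difference of -0.81 (limma adjusted p = 0.022). The Osmr call was lost with either IFNγ-treated control sample left out (adjusted p = 0.063 and 0.13), with either IFNγ-treated DENR KO sample left out (0.15 and 0.059) and without untreated DENR KO replicate 2 (0.23).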

How the results depend on the processing

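Requiring a log2 fold change beyond 0.5 left 0 of 8 members called between DENR KO and control with IFNγ, and 2 in each response to IFNγ. Limma on the deposited values left 2 called in the response of DENR KO cells. With 1 sample left out, members called ran from 0 to 1 (DENR KO with IFNγ), stayed at 0 untreated and in the interaction, and ran from 3 to 5 (response of control cells) and from 2 to 4 (response of DENR KO cells). Other pseudocounts, no filter on low values, median centring, edgeR, DESeq2 and 1 fit of all 8 samples kept the counts between genotypes.

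By limma on the deposited values the log2 response turned to -0.0474 (Ifnar1) and -0.00482 (Il10rb) in DENR KO cells and to -0.00889 (Jak1) in control cells. In that fit, with each table on its own scale, the median response of all genes tested was -0.0821 in control and -0.0794 in DENR KO cells. By edgeR the medians were -0.00512 and -0.00196. Values of single genes also turned direction with 1 sample left out, and none of these had been called. Between genotypes untreated the log2 difference ran from -0.106 to 0.095 (Ifngr1), -0.213 to 0.0129 (Jak2) and -0.242 to 0.0327 (Jak3). With IFNγ it ran from -0.00444 to 0.0301 (Jak1), -0.121 to 0.0549 (Tyk2) and -0.177 to 0.0572 (Il10rb). In the interaction it ran from -0.168 to 0.0327 (Ifngr1), -0.186 to 0.0885 (Jak3), -0.047 to 0.129 (Tyk2) and -0.0958 to 0.0626 (Denr). The response to IFNγ ran from -0.0536 to 0.00284 (Ifnar1) and -0.158 to 0.0186 (Tyk2) in control cells and from -0.0156 to 0.0735 (Ifnar1), -0.104 to 0.0523 (Tyk2) and -0.0435 to 0.187 (Il10rb) in DENR KO cells. The cause was not tested.

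The replicate numbers are shared by the groups, and the deviations of samples with 1 number correlated at 0.25 between genotypes with IFNγ and at 0.06 untreated, at 0.27 between treatments in control cells and 0.01 in DENR KO cells, and at 0.14 and -0.02 across both, which with 2 numbers does not establish a pairing. With the replicate number as a block, 1 member was called with IFNγ (Jak2, limma adjusted p = 5.4e-06), 0 untreated, 0 in the interaction, 5 in the response of control cells and 5 in that of DENR KO cells, where Jak3 passed (edgeR adjusted p = 0.042). Over all genes the block raised the calls from 565 to 1455 with IFNγ, 81 to 257 untreated and 63 to 150 in the interaction. A log2 fold change beyond 0.5 left 215 and 30 of the calls between genotypes with IFNγ and untreated, and 1043 of 2182 and 649 of 1422 in the responses of control and DENR KO cells. DESeq2 called 345 genes with IFNγ and 50 untreated. Calls dropped to 35 untreated without control replicate 2, to 37 in the interaction without IFNγ-treated control replicate 2 and 39 without untreated DENR KO replicate 1. In the response of DENR KO cells they dropped to 843 and 927 without untreated DENR KO replicate 1 and 2, and to 925 without IFNγ-treated DENR KO replicate 2. With 2 samples per group, what was detectable for each member is bounded by its interval.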
